A study of Mus musculus with 24 samples.

Results

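The contacts of a chromosome 4 region called viewpoint 154.9 were compared between day 3 and day 0 in a mouse embryonic stem cell line of genotype OCF2ΔYY1, here called the YY1 line. The comparison used 4 of the 24 libraries of the series, 2 biological replicates at day 0 and 2 at day 3, chosen by line, viewpoint and day as the labels give them. All 4 came from passage 7 of cells whose strain is C57Bl/6 x 129/Sv. Each library lists raw read counts for 42400 HindIII fragments of chromosome 4, of which 42397 were analysed. The viewpoint fragment, 154951842 to 154952528 in build mm9, and its neighbour on either side were left out. For comparison, 4 libraries of the same viewpoint and days in the line of genotype OCF2ΔOCT4/SOX2, here the OctSox line, were used. The series title places the study at the onset of stem cell differentiation. The labels used here name neither the treatment between the days nor the exact change that the Δ of each genotype stands for, and they do not say whether a line is a single clone.

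4C sequencing measures how often other pieces of DNA lie close to a chosen viewpoint in the nucleus. Chromatin is crosslinked, cut with HindIII and ligated, and the fragments joined to the viewpoint are amplified and counted. In chromosomes of most cells, contact falls steeply with distance along the DNA, and contacts at longer range follow the larger folding of the chromosome, where regions of like activity tend to share space. YY1 is a zinc finger protein that binds many promoters and enhancers and is known for bringing them together. Oct4 is a transcription factor required for pluripotency.

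Viewpoint 154.9 lies near the end of chromosome 4, with 0.678 Mb of fragments on the side of higher coordinates and 155 Mb on the side of lower coordinates. The libraries held 1967681 and 1943221 counts at day 0 and 1875621 and 2279333 at day 3. The viewpoint fragment took 22.0% and 10.9% of all counts at day 0 and 63.8% and 36.0% at day 3, so that both day 3 values exceeded both day 0 values. The neighbour on the lower side took 0.0268% and 0.0846% at day 0, then 0.0775% and 0.549%, and that on the higher side 1.92% and 3.15%, then 0.758% and 1.14%. Outside these fragments 1496269 and 1669213 counts were left at day 0, and 662576 and 1420056 at day 3. The part of this shift in the results below was not tested, and several of them changed when the viewpoint fragments were not left out. All shares that follow are percentages of the counts outside the viewpoint, and a fragment with 0 counts could hold up to 0.00018% to 0.000453% of them by counting error alone. Replicate 1 of day 3 stood apart in depth and in the length of the fragments it detected. Beyond 20 Mb it had a count at 13.7% of the shortest 9396 fragments and at 22.7% of the longest 9395. Day 0 replicates 1 and 2 had 17.7% and 13.5% of the shortest and 19.4% and 15.0% of the longest, and day 3 replicate 2 had 19.8% and 20.2%. The labels call the replicates biological, and repeated PCR copies are not separated in the counts, so that limits from counting cover counting error only.

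Contacts with the far parts of chromosome 4 made up a larger share of the profile at day 3, and contacts within 1 Mb a smaller share. Beyond 20 Mb, day 0 replicates 1 and 2 held 10.8% and 10.7% of their counts, and the day 3 replicates held 26.1% and 29.5%. Both day 3 values exceeded both day 0 values, and the means were 10.7% ± 0.0752 and 27.8% ± 2.46 (SD, n = 2 each). Up to 0.1 Mb the day 0 libraries held 37.5% and 41.4% and the day 3 libraries 20.7% and 32.5%. At 0.1 to 1 Mb the day 0 libraries held 36.2% and 33.3%, against 28.2% and 23.7% later. In both near bands the day 3 libraries lay below the day 0 libraries.

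The middle distances were less clear. At 5 to 20 Mb, day 0 held 8.78% and 8.19% and day 3 held 14.3% and 9.74%. At 1 to 5 Mb the day 3 replicates went to opposite sides of day 0, with 10.8% and 4.51% against 6.68% and 6.4%. With 2 libraries against 2, the two-sided exact permutation test over 6 arrangements cannot go below p = 0.333, which was the p-value of each band except 1 to 5 Mb, where it was 1. When the viewpoint was not left out, the difference beyond 20 Mb was 5.13 percentage points in place of 17.1. The band up to 0.1 Mb, which then held the viewpoint fragment, was 13.9 percentage points higher at day 3. At 1 to 5 Mb and 5 to 20 Mb the differences were then -1.98 and -1.30 percentage points, in place of 1.10 and 3.52.

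**Figure D1:**
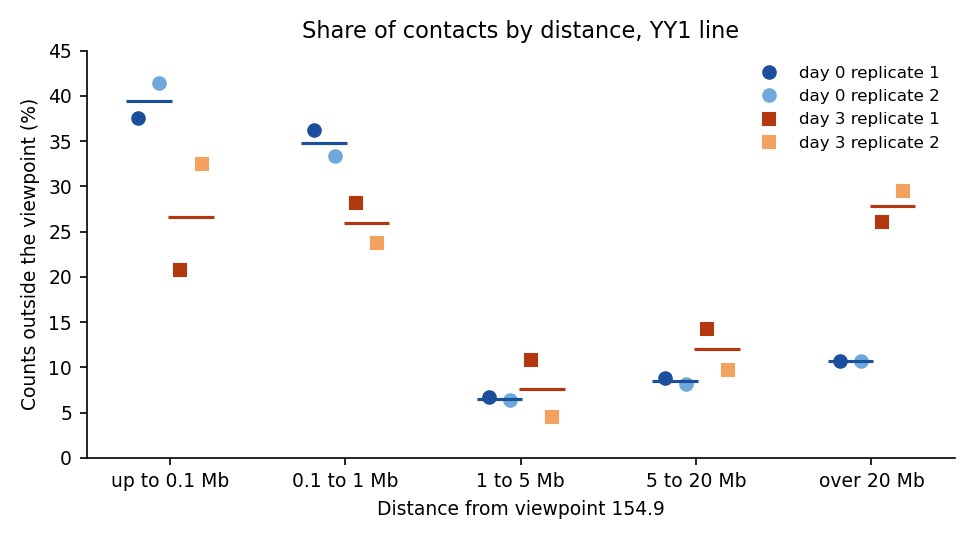
Share of counts outside the viewpoint (%, linear axis) in 5 bands of distance from viewpoint 154.9, with circles for the 2 day 0 libraries, squares for the 2 day 3 libraries and horizontal lines for the means. Beyond 20 Mb the day 3 libraries sit at 26.1% and 29.5%, against 10.8% and 10.7% at day 0.

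Far fragments with a count held more of the profile each at day 3. The share of far fragments with a count overlapped between the days as counted, but not at equal depth. Beyond 20 Mb, 18.1% and 13.9% of the 37580 fragments had at least 1 count at day 0, and 18.0% and 19.9% at day 3, a ratio of means of 1.18. With all libraries thinned to the smallest total the share was 3.98 percentage points higher at day 3, and with at least 10 counts required it was 2.49 points higher, each without overlap (exact permutation p = 0.333, the smallest possible). A far fragment with a count held on average 0.00158% and 0.00204% of its library at day 0, and 0.00385% and 0.00395% at day 3. On that measure both day 3 libraries were higher, with a ratio of means of 2.15. Nearer to the viewpoint, the share of fragments with a count at 5 to 20 Mb was 64.3% and 56.2% at day 0 and 57.6% and 48.4% at day 3, also overlapping. All 46 fragments within 0.1 Mb had counts in every library.

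Summed over 1 Mb windows, contacts rose along most of the chromosome beyond 20 Mb. The quasi-likelihood test of edgeR (adjusted by Benjamini-Hochberg), with libraries scaled by their counts outside the viewpoint, called 108 of 153 windows (70.6%). Of these, 106 rose (69.3%) and 2 fell (1.31%). All 106 rises lay among the 132 windows beyond 20 Mb, and both falls were the windows that touch the viewpoint. In 126 of these 132 far windows both day 3 values exceeded both day 0 values. Over all 153 windows this held in 135, and in 2 both day 3 values lay below both day 0 values.

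The change grew with distance from the viewpoint. The 4 windows at 1 to 5 Mb had a median log2 change of 0.25, with 0 called. The 15 windows at 5 to 20 Mb had a median of 0.51, also with 0 called. At 20 to 50 Mb, 18 of 30 windows were called as rises, with a median log2 change of 1.13. At 50 to 100 Mb 42 of 50 were called, with a median of 1.94. Beyond 100 Mb 46 of 52 were called, with a median of 2.13. On this scale all 132 windows beyond 20 Mb had a log2 change above 0. As shares, the median window beyond 100 Mb held 0.0128% and 0.0146% of counts at day 0 and 0.0626% and 0.07% at day 3. At 20 to 50 Mb the median windows held 0.271% and 0.248% at day 0 and 0.561% and 0.501% at day 3.

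These calls are changes of shares, and the call depends on the scale. TMM scaling, which takes a trimmed mean over windows as no change, lowered the windows' log2 changes by 1.35 in the median. With it 3 windows were called (1.96%), 1 rise and 2 falls, and DESeq2 called 4 of the 82 to which it gave an adjusted p, all falls. Relative to that level the median log2 change was -0.82 at 5 to 20 Mb, -0.21 at 20 to 50 Mb, 0.58 at 50 to 100 Mb and 0.78 beyond 100 Mb. Of the 132 far windows 100 lay above 0, and the windows within 20 Mb all lay below it. The direction of the medians at 1 to 50 Mb was thus set by the scale. The shift was nearly the same for every window, so the order by distance does not bear on this choice. With the viewpoint fragment counted in the total, 0 windows were called, with 18 at an unadjusted p under 0.05. Without day 0 replicate 1 the count was 29 and without day 0 replicate 2 it was 33, all rises.

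**Figure D2:**
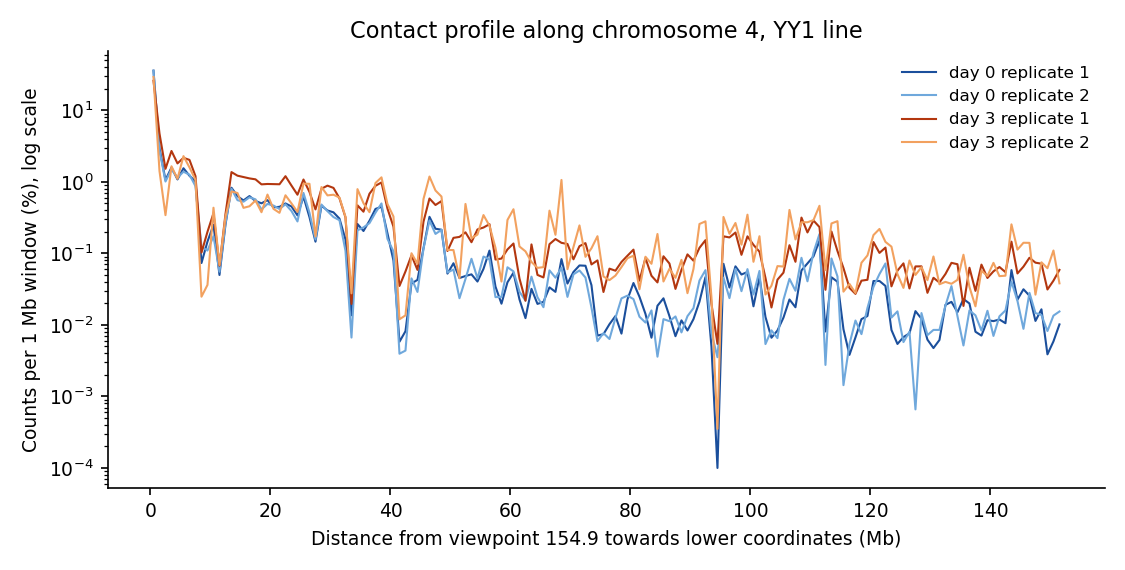
Share of counts per 1 Mb window (%, log axis) against distance from viewpoint 154.9 on the side of lower coordinates, with a line for each library. The day 3 lines run above the day 0 lines over most of the range beyond 20 Mb, and day 0 replicate 1, with 0 counts in the window at 94 Mb, is drawn there at 0.0001%.

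The 5 largest called rises were far windows with low shares at day 0. The window from 79950693 to 80951466, 74 Mb from the viewpoint, held 0.00708% and 0.00593% at day 0 and 0.0797% and 0.174% at day 3. The log2 change came to 4.28 ± 0.59 (SE; edgeR adjusted p 0.0138), and it was the only window also called as a rise under TMM scaling (edgeR adjusted p 0.0427). The window from 23950563 to 24947427 followed with 3.36 ± 0.62 (SE), from 0.00475% and 0.00851% to 0.0456% and 0.0904%. The windows from 69950658 to 70950228, 38947137 to 39951458 and 28949987 to 29942830 had log2 changes of 3.35, 3.17 and 3.07. The 5 were chosen among called windows whose days did not overlap, so the lack of overlap in them is no separate support.

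Windows that were poorly contacted at day 0 had the larger changes also when they were ranked in other libraries. The 132 far windows were split into 3 groups of 44 by their day 0 share in the OctSox line, whose libraries have no part in this comparison. In the 44 with the lowest share the YY1 line had a median log2 change of 2.31, in the middle 44 one of 2.02 and in the 44 with the highest share one of 1.29. With TMM scaling these medians were 0.96, 0.67 and -0.06. The median window of the lowest group went from 0.00942% and 0.00965% at day 0 to 0.0451% and 0.0506% at day 3. The median window of the highest group went from 0.149% and 0.136% to 0.303% and 0.378%. The far profile was flatter at day 3. The 10 most contacted far windows held 42.4% and 42.9% of all far counts at day 0 and 36.0% and 31.5% at day 3. The less contacted 66 of the 132 windows held 7.54% and 7.68% at day 0 and 13.2% and 12.5% at day 3. These groups differ in distance as well as in share, and their difference was not tested.

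**Figure D3:**
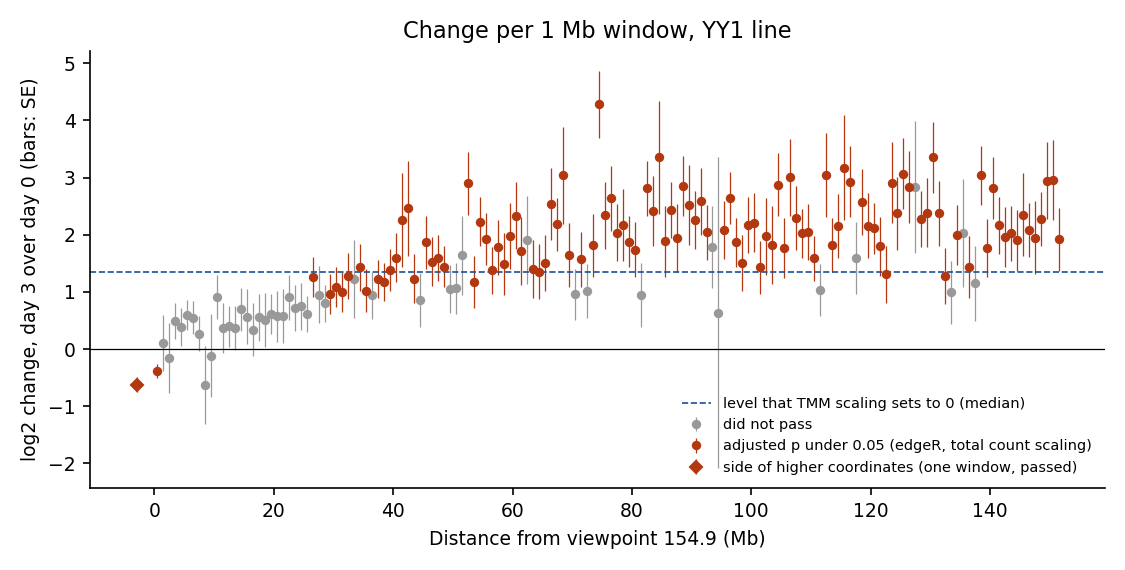
log2 change in share, day 3 over day 0, per 1 Mb window (points, bars are SE) against distance from viewpoint 154.9, with called windows in red and the higher-coordinate window as a diamond left of 0. The median change climbs from 0.25 at 1 to 5 Mb to 2.13 beyond 100 Mb, and the dashed line marks the level that TMM scaling takes as 0.

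The far windows kept much of their rank order between the days. Over the 132 far windows the shares of the day 0 replicates had a Spearman correlation of 0.904, those of the day 3 replicates 0.808, and pairs across the days between 0.834 and 0.894. All 4 libraries share the fragment map, so these values describe the profiles and are not tested. Stretches of low contact also recurred in every library. The windows from 145951716 to 146947599 and from 142947434 to 143950540, 8 and 11 Mb away, held at most 0.124% and 0.0687%, although the window from 140949030 to 141946423, which lies farther away, held at least 0.733% in every library. The first of them had the lowest log2 change of all windows, -0.63 ± 0.68 (SE), and did not pass (edgeR adjusted p 0.403).

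Close to the viewpoint, the share of counts fell in the windows on both sides. The shares of a library add up to its whole, so these falls and the far rises are not separate results. The window of higher coordinates, 154954693 to 155630120, held 37.9% and 39.1% at day 0 and 23.1% and 27.1% at day 3. It fell by 0.62 ± 0.13 on the log2 scale (SE), at 0.0138 for the edgeR adjusted p. The window of lower coordinates, 153942759 to 154930001, fell from 35.8% and 35.6% to 25.8% and 29.2%, with -0.38 ± 0.12 (SE) and an adjusted p of 0.0277. Over the same reach of 0.678 Mb on both sides, the lower side held 47.1% and 46.2% of the near counts at day 0 and 50.1% and 50.7% at day 3. Both day 3 values exceeded both day 0 values (exact permutation p = 0.333, the smallest possible). Neither fall passed without one of the day 0 replicates. With the viewpoint fragment counted neither passed (edgeR adjusted p 0.314 and 0.272), and the log2 changes were 0.34 on the higher and -1.05 on the lower side. The higher window then held the viewpoint fragment itself, so its 0.34 includes the viewpoint's own counts.

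Among 53 windows of 50 kb within 2 Mb, 1 passed the test (1.89%) and it fell. The window from 154748328 to 154791089, 150 to 200 kb away on the lower side, held 1.74% and 1.92% at day 0 and 0.899% and 0.729% at day 3. The log2 change of -1.17 ± 0.28 (SE) had an edgeR adjusted p of 0.00305, or 0.323 with TMM scaling. The next, 155102900 to 155153900 at the same distance on the higher side, held 3.95% and 3.99% at day 0 and 2.36% and 2.29% at day 3 (log2 change -0.77 ± 0.25 SE, edgeR adjusted p 0.0783). The windows 154650684 to 154700281, 155153907 to 155202610 and 155007613 to 155060398 had log2 changes between -0.60 and -0.63 and did not pass. In 10 windows both day 3 libraries lay below both day 0 libraries, in 1 above, and in 42 the days overlapped. No 50 kb window was called as a rise, although 19 of the 53 had a log2 change above 0. The 5 with a positive change and the smallest p, such as 153445572 to 153499275, had an adjusted p of 0.995. The day 3 replicates differed in this range: without replicate 1 of day 3 there were 32 falls, and without replicate 2 there were 13 rises and 10 falls. Without either day 0 replicate, 0 windows passed. The count was 20 falls when the viewpoint was not left out, 18 falls with the largest counts capped, and 0 with shifted windows or by DESeq2.

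**Figure D4:**
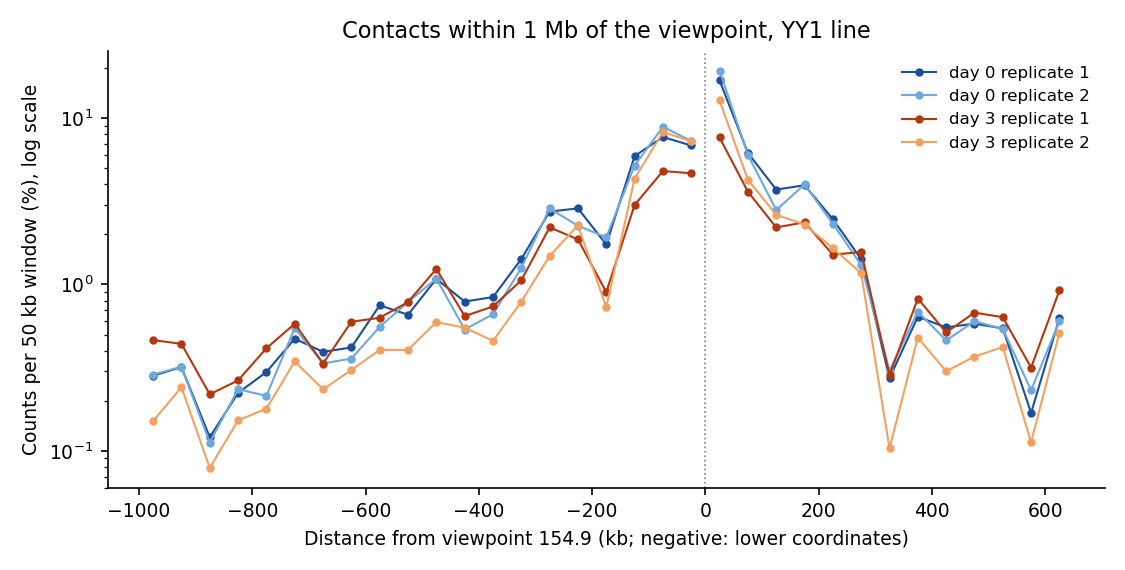
Share of counts per 50 kb window (%, log axis) within 1 Mb of viewpoint 154.9, with a line for each library and negative distances for lower coordinates. The called window at 150 to 200 kb on the lower side lies at 0.899% and 0.729% at day 3 and at 1.74% and 1.92% at day 0.

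The most contacted fragments all lay between 2.16 and 56.4 kb from the viewpoint. The 10 with the highest mean share together held 18.2% and 20.2% of counts at day 0 and 9.91% and 17.6% at day 3. In 4 of the 10 both day 3 libraries lay below both day 0 libraries, in the other 6 the days overlapped, and 0 of the 10 passed the test. Of all 46 fragments within 0.1 Mb, 27 were lower and 1 higher without overlap, and of the 6707 fragments tested on the chromosome 886 were lower and 1368 higher. The first, 154966015 to 154967572, carried the largest difference, with 2.98% and 4.65% at day 0 and 1.37% and 1.16% at day 3. Its neighbour from 154967579 to 154971095 held 2.21% and 1.86% at day 0 and 0.879% and 1.98% at day 3, which overlap. The fragment 154901822 to 154906277, 45.6 kb away on the lower side, held 1.99% and 2.47% at day 0 and 1.32% and 1.82% at day 3. The fragment 154964054 to 154966008 held 1.91% and 1.85% at day 0 and 0.667% and 1.78% at day 3, and 154988223 to 154989699 held 1.89% and 1.72% at day 0 and 0.818% and 1.5% at day 3. On the lower side, 154914326 to 154914826, 154914833 to 154926167, 154893686 to 154895454 and 154912312 to 154914299, and on the higher side 154954693 to 154964047, overlapped between the days. In all 6 fragments whose days overlapped, day 3 replicate 1 lay below both day 0 libraries.

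Single fragments varied more between replicates than windows did, with a common edgeR dispersion of 2.06 against 0.165 for 1 Mb windows. edgeR tested the 6707 fragments that passed its filter on low counts, 15.8% of those analysed, and called 0 of them (0.0%) after Benjamini-Hochberg adjustment, with 365 at an unadjusted p under 0.05. These 365 are a share of the tested fragments near the 0.05 of the threshold itself, with 267 higher and 98 lower at day 3. Of the 46 tested up to 0.1 Mb, 10 were lower and 0 higher. Of the 257 tested at 0.1 to 1 Mb, 25 were lower and 1 higher. Beyond 20 Mb, where 3876 of the 6707 tested fragments lay, 30 were lower and 243 higher. Within 0.1 Mb all 46 fragments were tested, with a median log2 change of -0.78 by TMM and -0.48 with total counts as the scale, on which edgeR called 0 fragments as well. DESeq2 called 146 of 4886 fragments with an adjusted p (2.99%), 137 higher and 9 lower, and 128 of the higher ones lay beyond 20 Mb.

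The 5 fragments with the smallest edgeR p among those lower at day 3 lay between 13.5 kb and 7.32 Mb from the viewpoint. The fragment 154987414 to 154988216, 34.9 kb away, had 9827 and 14421 counts at day 0 and 1760 and 1648 at day 3. The fragment 154020295 to 154021036, 931 kb away, had 539 and 631 counts at day 0 and 23 and 33 at day 3. The fragment 152441665 to 152441992, 2.51 Mb away, had 200 and 111 at day 0 and 0 in both day 3 libraries. By counting error alone, with 3 counts over the day 3 libraries as the floor, it was at least 68.2-fold lower at day 3 (21.7-fold without day 3 replicate 2, and 46.2-fold to 92.8-fold without 1 of the others). Each of the 5 had an edgeR adjusted p of 0.639 and is given as not passing. Among the rises by the same rule, 57011565 to 57015400 had 0 counts in both day 0 libraries and 52 and 412 at day 3, at least 235-fold higher by counting error alone, with both days' counts pooled. That bound rests on day 3 replicate 2, without which it is 82.8-fold. Without day 3 replicate 1 it is 306-fold, and without day 0 replicates 1 and 2 in turn 124-fold and 111-fold.

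The authors' deposited table, which holds their own day comparison, called 11 of 2155 fragments with an adjusted p under 0.05 (0.51%). Its header gives the days but not which is over which, so the direction was taken from these counts. The table's changes had a Pearson correlation of -0.94 with the log2 change day 3 over day 0 in the counts. Turned to day 3 over day 0 on that basis, it has 10 higher and 1 lower. The table names no fragments. Its entries were placed by matching its mean counts in order with the fragments, with a correlation of 0.998 against 0.997 for the next best placing, and the positions of the 11 rest on that match. The 11 were called for a day difference in these same libraries, so their values describe the calls and do not support them. The days did not overlap in any of the 11, beside the 1368 higher and 886 lower of 6707 given above. DESeq2 called 10 of them, and edgeR gave each an unadjusted p under 0.05 and 0 an adjusted p under 0.05. Of the 11, 7 lay beyond 20 Mb and 1 within 1 Mb. Of the 6707 fragments that edgeR tested, a wider set than the authors' entries, 3876 lay beyond 20 Mb.

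Of the 10 fragments called higher, 5 were almost empty at day 0. The fragment 119221439 to 119224149, 35.7 Mb away, had 0 and 4 counts at day 0 and 104 and 697 at day 3. The authors' deposited table gives it 4.38 ± 0.90 (log2 fold change, SE; adjusted p 0.00246). Fragment 128641897 to 128644070 had 0 and 1 counts at day 0 and 94 and 404 at day 3. The fragments 94931660 to 94940330, 115879351 to 115883731 and 134463446 to 134472313 had at most 2 counts in a day 0 library and between 124 and 197 at day 3. These 5 lie between 20.5 and 60.0 Mb from the viewpoint.

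A pair of called fragments lay 12.7 kb apart at 25.7 Mb. The fragment 129237964 to 129246532 had 472 and 1139 counts at day 3 after 62 and 67 at day 0. The authors' deposited table puts its log2 fold change at 3.03 ± 0.68 (SE). Its companion 129222308 to 129225301 counted 5 and 23 on day 0, then 146 and 825 on day 3, and stands at 3.57 ± 0.85 (SE) in the authors' deposited table. The 1 Mb window around them held 1.08% and 0.942% in the day 3 libraries against 0.621% and 0.699% before, a log2 change of 0.61 ± 0.32 (SE) that did not pass (edgeR adjusted p 0.11).

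The called fragments within 20 Mb were more mixed in their day 0 counts. The fragment 154057284 to 154060065, 0.892 Mb away, had 97 and 69 counts at day 0 and 399 and 518 at day 3. The fragment 150018019 to 150022940, 4.93 Mb away, had 3 and 12 at day 0 and 353 and 137 at day 3. The fragment 151222224 to 151225861, 3.73 Mb away, had 51 and 61 at day 0 and 120 and 1603 at day 3, so that replicate 2 held most of the difference. The fragment called lower, 147627120 to 147634461 at 7.32 Mb, dropped from 198 and 287 counts to 1 and 3. Its value in the authors' deposited table is -3.95 ± 0.90 (log2 fold change, SE).

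The surroundings of these fragments moved less than the fragments themselves. Within 50 kb on either side, without the called fragments, the share at day 3 was between 1.06 and 5.76 times that at day 0 for the 10 called higher, with a median ratio of 2.01. Around 6 of the 10 both day 3 values exceeded both day 0 values, beside 126 of the 132 far windows of 1 Mb, and the pair at 25.7 Mb shares most of its surroundings. The fragments were chosen for their change and their surroundings were not, so no test was made between them. Around 94931660 the surroundings held 78 and 2 counts at day 0 and 29 and 374 at day 3, so the largest ratio rests on 1 library. Around 154057284 they held 0.437% and 0.399% at day 0 and 0.585% and 0.322% at day 3, which overlap.

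**Figure D5:**
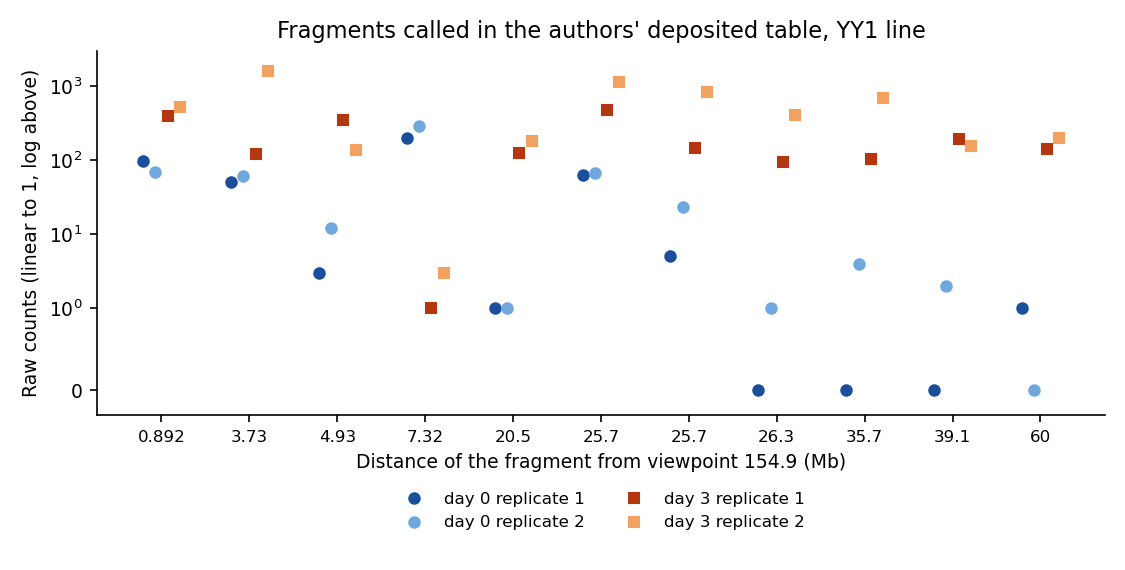
Raw counts (linear up to 1, log scale above) of the 11 fragments called in the authors' deposited table, ordered by distance from viewpoint 154.9 in Mb, with circles for day 0 and squares for day 3. In 10 fragments both squares lie above both circles, and at 7.32 Mb the order is turned, with 198 and 287 counts at day 0 and 1 and 3 at day 3.

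Libraries of the same day shared about as many far fragments as libraries of different days, which had between 2458 and 3329 in common. Beyond 20 Mb, 2740 fragments had counts in both day 0 libraries, which is 40.3% of those detected in replicate 1 and 52.5% of those in replicate 2. The day 3 libraries shared 2874, or 42.5% and 38.4%. Across the days, the replicates numbered 1 shared 3329, or 49.0% and 49.2%, and those numbered 2 shared 3197, or 61.2% and 42.8%. The Spearman correlation of counts was 0.402 and 0.431 for these same-numbered pairs, 0.328 and 0.325 for pairs of unlike number across the days, 0.385 between the day 0 and 0.286 between the day 3 libraries. Within 20 Mb, any pair of libraries shared between 74.5% and 93.6% of either list. In day 3 replicate 2, 574 of the 1937 fragments with at least 100 counts had 0 in replicate 1, and they held 9.25% of its counts. In the other direction, and between the day 0 replicates, such fragments numbered between 78 and 125 and held at most 1.69%.

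In the OctSox line the same viewpoint had a difference between the days of 4.59 percentage points beyond 20 Mb, against 17.1 in the YY1 line. There the share beyond 20 Mb was 13.1% and 15.2% at day 0 and 18.4% and 19.1% at day 3. Over the 132 far windows its median log2 change was 0.49, against 1.91 in the YY1 line, and both day 3 values exceeded both day 0 values in 38 windows against 126. As in the YY1 line, its median climbed with distance, from 0.27 at 20 to 50 Mb to 0.78 beyond 100 Mb. Its near bands overlapped between the days, with 50.5% and 26.0% up to 0.1 Mb at day 0 and 29.9% and 46.0% at day 3. The OctSox viewpoint fragment took 20.1% and 31.2% of all counts at day 0 and 56.3% and 27.2% at day 3, which overlap. With the viewpoint counted, the YY1 difference beyond 20 Mb was 5.13 percentage points, and the OctSox difference was not computed. The interaction below also leaves the viewpoint out. The difference between the lines was tested as an interaction of line and day, which called 0 of 153 windows (0.0%) by edgeR, with 20 at an unadjusted p under 0.05 and 0 called by DESeq2. The log2 interaction was above 0 in 130 of the 132 far windows, with a median of 1.25 and a median SE of 1.03. With TMM scaling it called 0 windows, with 3 at an unadjusted p under 0.05, and its median over all windows was 0.24. Without YY1 day 3 replicate 1 the interaction called 2 windows, and without OctSox day 3 replicate 2 it called 1. Over single fragments edgeR called 3 of 9241 interactions (0.0325%), and DESeq2 called 108 of 5837 (1.85%). In each of the 3, YY1 day 3 replicate 2 held nearly all YY1 counts of its day, and the OctSox counts enter the interaction as well.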

How the data were processed

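Paired-end 4C sequencing with HindIII was done on embryonic stem cells, with reads aligned with Bowtie to build mm9 per the submitters' processing notes. Read filters were not given there. The values the authors deposited are raw counts of reads on each HindIII fragment, with totals of 1875621 to 2279333 per library. The authors' deposited table of the day comparison gives mean normalised counts (a signal), log2 fold changes, a test score, and p-values and adjusted p-values. From the counts the fold changes were taken as day 0 over day 3, which the header does not state, and their sign was turned here. The table's 2536 entries carry no positions. They were placed in order on the 2537 fragments whose median count reached 40, less the lower neighbour of the viewpoint.

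Counts were tested with edgeR 4.0.16 (R 4.3.3; quasi-likelihood, filterByExpr with a minimum count of 10, TMM for fragments, total counts for windows) at an adjusted p of 0.05 by Benjamini-Hochberg, with DESeq2 1.42.0 as an alternative. Windows of 1 Mb and, within 2 Mb, of 50 kb were sums by distance, tested with a mean count of at least 10. Shares by distance band were compared with exact permutation tests. The code was tested on simulated data. Named features were the 10 fragments with the highest mean share and, among calls whose days did not overlap, the 5 largest rises and falls of each test, filled up by the smallest p where fewer passed and passing over fragments within 20 kb of one named. All calls of the authors' deposited table and of the interaction test were named too, with a few windows beside them, chosen after their values were seen. The members and lists were chosen with earlier results of these data known. Alternatives were other scalings, filters, window positions, zones left out at the viewpoint, capped counts, a replicate block and leaving out each library. Same-numbered replicates did not deviate together (correlation 0.0068 over fragments and -0.077 over windows), so the numbers were not taken as pairs. Over far fragments, however, same-numbered libraries across the days were more alike (Spearman 0.402 and 0.431) than those of unlike number (0.328 and 0.325). A link between same-numbered libraries is therefore not excluded. No gene was assigned to a fragment and no sequence is shown, since an annotation of mm9 was not used here.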

Additional observations from a re-analysis of the deposited data

Results flagged for a closer look

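At 3 fragments the change between the days differed between the YY1 line and the OctSox line by edgeR's quasi-likelihood interaction test over 9241 fragments. The fragment from 48262985 to 48265819, 107 Mb from the viewpoint, had a log2 interaction of 10.88 (adjusted p 5.24e-05). YY1 libraries counted 0 and 17 at day 0, then 0 and 4141, and OctSox libraries 0 and 22, then 0 and 3. The fragment from 99583914 to 99584493 had a log2 interaction of 13.16 (adjusted p 0.000501), with YY1 counts of 0 and 3, then 0 and 1917. OctSox libraries counted 34 and 7 there at day 0, then 0 and 4. The fragment from 108801371 to 108804856 had 12.10 (adjusted p 0.00577), with YY1 counts of 36 and 55, then 37 and 1883. OctSox libraries counted 26 and 4 there at day 0, then 0 and 0. Within the YY1 line alone its log2 change by edgeR was 4.71, so the OctSox fall also entered this interaction. In each, YY1 day 3 replicate 2 held nearly all the counts of its day. DESeq2 did not call 48262985 (adjusted p 0.557) or 99583914 (0.228) and called 108801371 (0.00267), and with a replicate block edgeR called 0 of the 3. Without YY1 day 3 replicate 2, the interaction of fragment 48262985 was -3.32.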

How the results depend on the processing

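Of the alternatives to the comparisons, 93 were labelled the same, 16 had fewer and 13 more calls, and 7 turned the direction. Counts of calls were labelled by their number alone, equal or near to the main one, whatever the direction of the calls. With total count scaling the fragment interaction called 2 higher and 1 lower, against 3 higher, and was labelled the same. Shares by distance were labelled by sign alone. For named features 412 kept direction and side of the threshold, 46 lost and 61 gained a call, and 34 turned. The causes were not tested. Fragment calls, 0 by edgeR, were 146 by DESeq2, 20 with no filter on low counts and 0 to 276 with a library left out (276 and 114 without day 3 replicates 1 and 2). The 108 calls of 1 Mb windows were 4 by DESeq2, 3 with TMM, 0 with nothing left out at the viewpoint, 67 with capped counts and 29 to 116 with a library left out. The call among 50 kb windows was 0 by DESeq2, with TMM, with shifted windows and with the replicate block, 20 with nothing left out, 18 with capped counts and 0 to 32 with a library left out. With the replicate block, the interaction of line and day called 0 fragments, and the 1 Mb windows had 102 calls, the window at 153942759 not among them (-0.38, edgeR adjusted p 0.0869). DESeq2 called 108 fragment interactions. With a library left out (chosen after seeing the data) there were 0 to 10 fragment and 0 to 2 window interactions.

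The difference in share at 1 to 5 Mb was -1.98 with nothing left out, -1.38 with capped counts, -1.43 counting fragments in place of reads, and from -2.03 to 4.23 with a library left out. Up to 0.1 Mb it was 13.9 with nothing left out. At 5 to 20 Mb it was -1.30 with nothing left out and -4.41 counting fragments.

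With nothing left out, the 1 Mb window of higher coordinates, which then held the viewpoint fragment, had a log2 change of 0.34. The 50 kb windows at 153445572, 153092334, 155555601, 153550939 and 154294140 then had -0.13, -0.064, -0.63, -0.44 and -0.64. With capped counts 155555601 had -0.15 and 154294140 -0.34. Fragment 154914833 had 0.12 by DESeq2 and with RLE size factors, 0.090 with total counts and 0.76 with the distance trend removed. With that trend removed, 154901822, 154912312, 154954693, 154964054, 154967579 and 154988223 had 0.24, 0.12, 0.69, 0.052, 0.18 and 0.075. Fragment 154914326 had -0.13 with no filter and -0.29 with the replicate block, and 154893686 had -0.14 with the block. With a library left out, the 1 Mb windows at 145951716, 151951094 and 144949092 ranged from -1.99 to 0.058, -1.60 to 0.55 and -1.82 to 0.65. The 50 kb windows at 153445572, 155555601, 153550939 and 154294140 ranged from -0.23 to 1.43, -0.26 to 0.58, -0.26 to 0.90 and -0.34 to 0.62. Fragments 154893686 and 154914326 ranged from -1.30 to 0.74 and -1.27 to 0.40, and the interaction at 48262985 from -3.32 to 16.4.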
